A study of Mus musculus with 3 samples.

Results

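The smooth muscle contractile genes are the 10 genes Acta2, Actg2, Cnn1, Tagln, Myh11, Myl9, Des, Lmod1, Smtn and Tpm2. They were taken by name from the gene column of the arrays, where 21 of 56602 probes carried 1 of these names, out of 37073 named genes. All 10 genes had at least 1 probe. They were matched by gene name and not by a measured value, although earlier results of these data were known when the list was drawn up.

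Smooth muscle shortens when myosin filaments, built of the heavy chain Myh11 and the regulatory light chain Myl9, pull on thin filaments of smooth muscle actin (Acta2 and Actg2) that carry tropomyosin (Tpm2), calponin (Cnn1) and transgelin (Tagln). Desmin (Des) and smoothelin (Smtn) belong to the cytoskeleton around these filaments, and leiomodin (Lmod1) starts new actin filaments. In fat these genes mark the muscle cells of vessel walls, and Acta2 and Tagln are also known from cultured fibroblast-like cells and myofibroblasts.

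The study separated fat cells by how they float, and asked how small proliferative adipocytes (SPA) differ from stromal vascular cells (SVC) and from mature adipocytes (MA). All cells came from the epididymal fat of male C57/BL mice aged 20 weeks, with no transgene, diet or drug named, and the tissue was dispersed with collagenase. A first spin of 1 s at 9 g left SVC, the non-floating cells, in the lower phase. The floating cells were spun again for 3 min at 226 g, which gave MA as the cells that still floated and SPA as the sediment.

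SVC and SPA were grown in DMEM to 90% confluence before RNA was taken, while no culture step is given for MA. Culture and cell type therefore cannot be told apart in any comparison with MA, and the MA sample also carries another date in its label than the other samples. Each group was 1 array, and how many mice stood behind an array is not stated for the arrays. No difference below has a replicate check, and no test or p-value is given. In bulk RNA, fewer cells of a type and less RNA per cell cannot be told apart.

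Each array, an Agilent 1-colour array of 60-base probes, was made from 50 ng of RNA. Between 58.6% and 61.4% of its 59305 non-control spots were well above background, and 0 spots were saturated. The labels of the fractions were set beside 10 adipocyte markers. Of the 10, 9 were past 2-fold higher in SPA than in SVC (median log2 ratio 5.40, with 2 ratios being bounds), with Lep at 0.25. All 10 were past 2-fold higher in MA than in SPA (median 5.20). The study itself lists most of these markers from its microarray comparisons, so they are not an independent check of the labels. A level below is the log2 of the processed signal over the 75th percentile of that array, so that 0 is the 75th percentile. A gene was read at its brightest probe, with the other probes given beside it. Levels are compared between arrays for 1 probe and never between genes, except where the levels of a list are summed. The error of a log2 ratio between single spots, from the scanner software's error model, was 0.20 to 0.21 for the members' brightest probes. That model gave each of these spots well above background an error of 10% to 10.4% of its signal, so 2 times the error is nearly a fixed line. Probes spotted repeatedly on 1 array had a median SD of 0.04 to 0.05 on the log2 scale. Both describe error within an array only, and not between animals or cultures.

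Acta2, Actg2, Cnn1, Tagln, Myl9 and Tpm2, 6 of the 10 contractile genes, shared 1 order of levels, SVC above SPA above MA. Smtn and Des were lowest in SPA at their brightest probes, Myh11 was highest in MA, and Lmod1 was not well above background on any array. The 10 genes thus did not share 1 course. Each array read 9 of the 10 members clearly over its background, with 19 such probes in SVC, 19 in SPA and 16 in MA.

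**Figure D1:**
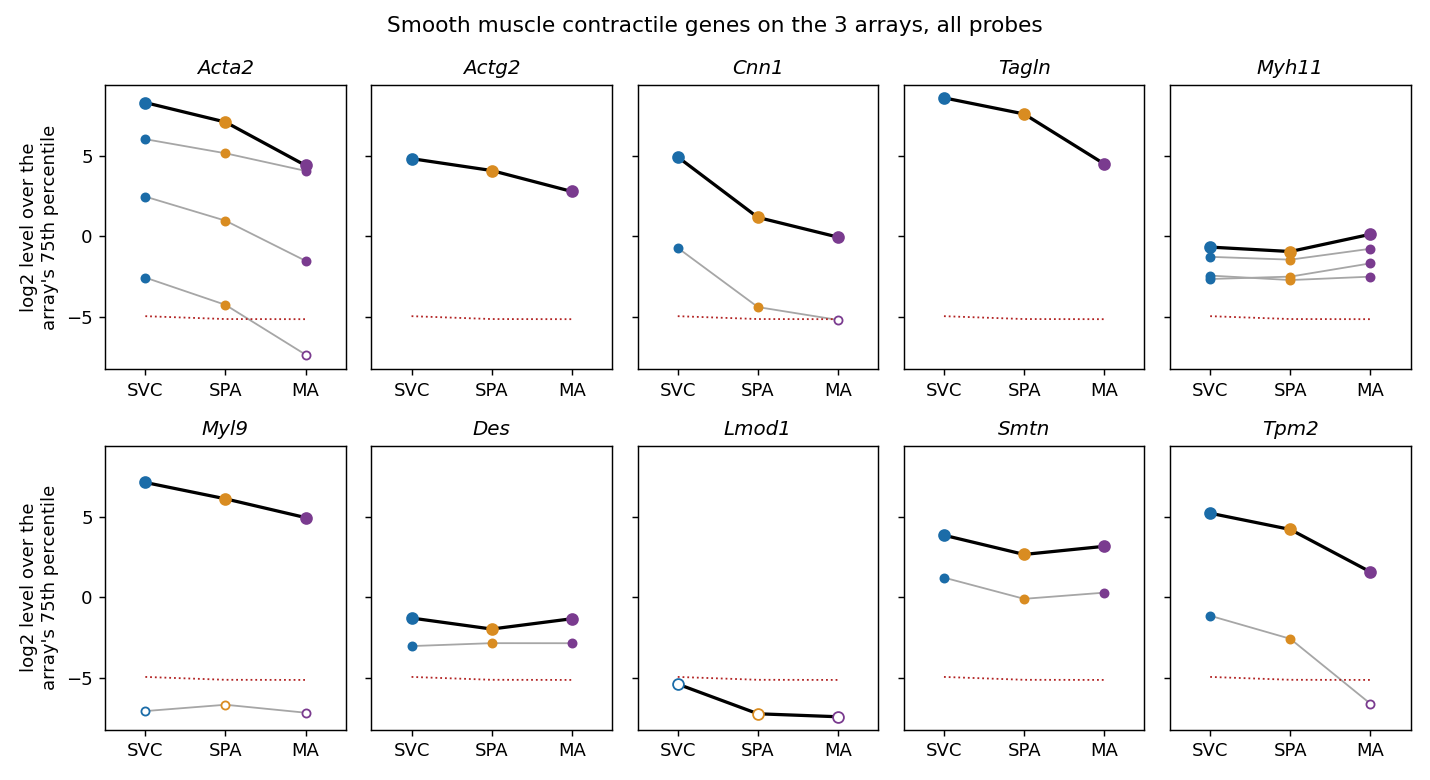
Level of each of the 21 probes of the 10 contractile genes on the SVC, SPA and MA arrays (y axis, log2 of the processed signal over the array's 75th percentile; 1 array a group). Black lines join the brightest probe of a gene and grey lines its other probes. Open circles are spots not well above background, and the dotted line is the floor, set by the dimmest probe still well above background. Of the genes well above background, 6 step down from SVC to SPA and again from SPA to MA, while Myh11, Des and Smtn do not.

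These 3 probes, whose target crosses an intron in the mouse genome (build mm9), are shown because they read spliced coding sequence of an actin, a calponin or the myosin heavy chain and because the genes differ in what they showed. They run 5′ to 3′ in the sense of the transcript, with no part set in capitals. The Acta2 probe lies on the minus strand at chr19:34322995-34326249, the Cnn1 probe on the plus strand at chr9:21909945-21910166, and the Myh11 probe on the minus strand at chr16:14207835-14208094.
Acta2: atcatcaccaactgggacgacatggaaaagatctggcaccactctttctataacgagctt
Cnn1: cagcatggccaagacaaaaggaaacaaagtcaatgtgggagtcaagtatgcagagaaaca
Myh11: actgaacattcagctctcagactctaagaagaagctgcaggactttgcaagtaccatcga

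Acta2 encodes the alpha actin of vascular smooth muscle. Its brightest probe (mm9 chr19:34316060-34316119) gave a processed signal of 134466 in SVC, 59244.5 in SPA and 7622.27 in MA, which are levels of 8.30, 7.09 and 4.40. SVC was the highest array and MA the lowest, with 2.31-fold less signal in SPA than in SVC, 6.45-fold less in MA than in SPA and 14.9-fold less in MA than in SVC. All 4 probes of the gene kept this order. The intron-crossing probe printed above gave 27919.9, 15486.6 and 6029.49, and so a smaller step from SVC to MA (log2 ratio -1.97) than the brightest probe (-3.90) or the probe at chr19:34315697-34315756 (-3.98). Actin isoforms are nearly alike in coding sequence, so a probe there may also read other actins, and how much it did was not tested. In SVC the last of these spots was marked for an outlying local background. The dimmest probe, at chr19:34327946-34328005, was not well above background in MA and gave at least 5.97-fold less signal there than in SVC.

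Actg2, the gamma actin of visceral smooth muscle, was read by 1 probe. Its signal was 12100.6 in SVC, 7381.34 in SPA and 2490.6 in MA. The steps were smaller than those of the brightest Acta2 probe, at 1.67-fold from SVC to SPA, 2.46-fold from SPA to MA and 4.10-fold in all.

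Tropomyosin 2, which lies along the actin filament, was also highest in SVC. The brightest Tpm2 probe (chr4:43532262-43532321) gave signals of 15769.9 in SVC, 7981.82 in SPA and 1068.32 in MA. Its ratios were 2.01-fold less in SPA than in SVC, 6.20-fold less in MA than in SPA and 12.5-fold less in MA than in SVC. The other Tpm2 probe (chr4:43527892-43527951) gave log2 ratios of -1.43 for SPA over SVC and a bound of -3.98, at least 15.8-fold less, for MA over SVC.

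Calponin 1 binds actin and slows the myosin motor. The brightest Cnn1 probe (chr9:21913058-21913117) gave a signal of 12990.6 in SVC, 984.05 in SPA and 350.02 in MA. Its largest step lay between the cultured fractions, with 13.4-fold less signal in SPA than in SVC, and the step from SPA to MA was 2.33-fold. The intron-crossing probe read 261 in SVC and 20.9 in SPA, a 12.7-fold difference, and in MA it was not well above background. Cnn1 was the 1 member past 5-fold between SPA and SVC.

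Transgelin binds and bundles actin, and its gene is among the first to be switched on in smooth muscle. The single Tagln probe (chr9:45738097-45738156) gave a signal of 164942 in SVC, 83810.1 in SPA and 8140.48 in MA. The step from SVC to SPA was 2.001-fold and the step from SPA to MA was 8.54-fold, the largest of any member between those arrays.

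The myosin genes did not follow 1 course. Myl9, the regulatory light chain whose phosphorylation starts contraction, gave 59113.1 in SVC, 29765.9 in SPA and 11022.5 in MA at chr2:156607301-156607360. These signals stood 2.02-fold lower in SPA than in SVC, 2.24-fold lower in MA than in SPA and 4.53-fold lower in MA than in SVC. A further Myl9 probe, which the files place nowhere in the genome, was not well above background on any array.

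Myh11, the heavy chain, is the member most restricted to mature smooth muscle. At its brightest probe (chr16:14195223-14198147) the signal was 270 in SVC, 227 in SPA and 396 in MA, so MA was the highest array. The difference between SPA and SVC (log2 ratio -0.28) was less than 2 times its error, 0.41. MA was 2.10-fold higher than SPA and 1.73-fold higher than SVC. All 4 Myh11 probes were higher in MA than in SPA, with log2 ratios from 0.21 to 1.07, and 3 of the 4 were higher in MA than in SVC, with log2 ratios from -0.07 to 0.97.

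Pericytes wrap small vessels, and 9 of 10 of their markers were higher in MA than in SVC (median log2 ratio 3.74). The list stands beside Myh11 because of that direction, so the shared direction was set by the choice. Rgs5 (log2 ratio 6.92) and Kcnj8 (6.43) had large differences. Abcc9 and Vtn were not well above background in SVC and had bounds of 5.70 and 6.65. Cspg4, Notch3 and Higd1b were also past 5-fold, which made 7 markers, where 5.77% of genes tested were 5-fold higher. Pdgfrb was lower in MA (-1.45). A summed level is the log2 of the summed scaled signals of a list, and it weighs the brightest probes most. The pericyte list had summed levels of 5.11 in SVC, 5.60 in SPA and 6.63 in MA, where 8, 9 and 10 of its markers passed the background. All 10 endothelial markers were past 5-fold higher in MA than in SVC, where 5.77% of genes were, with a median of 3.63. The part of these cells in the Myh11 signal was not tested.

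Des, the intermediate filament protein of muscle, was read at low signal. Its brightest probe (chr1:75363404-75363629) gave 175 in SVC, 111 in SPA and 143 in MA, with SPA lowest. Its other probe gave log2 ratios of 0.18 for SPA over SVC and -0.00 for MA over SPA, so the 2 Des probes did not share a direction. Des therefore has no order of levels that both probes bear.

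Smtn, which codes for a protein of contractile smooth muscle filaments, gave 6128.22 in SVC, 2727.44 in SPA and 3209.8 in MA at chr11:3417530-3417589. SPA was the lowest array, 2.28-fold under SVC, and MA was 1.42-fold above SPA. Its other probe, at chr11:3421838-3421897, kept this order with log2 ratios of -1.32 and 0.38.

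The only Lmod1 probe (chr1:137264581-137264640) gave 10.2 in SVC, 2.90 in SPA and 2.12 in MA. The lowest signals among probes well above background were 13.9, 12.5 and 10.3 on these arrays. No fold is given for Lmod1, since all its signals lay at the background.

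Between SPA and SVC, all 9 members with a ratio had less signal in SPA (median log2 ratio -1.01, range -3.75 to -0.28). Of the 20698 genes measured on both arrays, 43.4% were lower in SPA, and the median of all genes was 0.06. Cnn1, 1 member, was at least 5-fold lower, where 0.353% of 22663 genes tested were, and 0 members were 5-fold higher, where 0.322% of genes were. At 2-fold there were 6, Acta2, Cnn1, Myl9, Smtn, Tagln and Tpm2, where 3.2% of genes were called lower. Tagln, Tpm2 and Myl9, 3 of these 6, lay at 2.001, 2.01 and 2.02-fold, just past the line. Of the differences at the brightest probe, 8 of 9 were beyond 2 times the spot error. Des was among the 8, though its other probe was higher in SPA (0.18), as was 1 of the 4 Myh11 probes (0.15).

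From SPA to MA, 6 members were lower and 3 were higher, with a median log2 ratio of -1.22 against -0.07 for all genes. Acta2, Tagln and Tpm2 were at least 5-fold lower, 3 members where 3.94% of 23956 genes tested were called, and 0 members were 5-fold higher, where 5.5% of genes were. Read at the median of its 4 probes, Acta2 had a log2 ratio of -1.79 and was not past 5-fold, which left 2 members. At 2-fold, 6 were lower (17.8% of genes): Acta2, Actg2, Cnn1, Myl9, Tagln and Tpm2. Myh11 was the 1 member past 2-fold higher, where 15.9% of genes were. All 9 differences at the brightest probe were beyond 2 times the spot error, with Smtn (0.50 against 0.41) and Des (0.64 against 0.42) closest to it. The other Des probe had -0.004.

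MA and SVC share their arrays with the comparisons above. For MA over SVC, 8 members were lower and 1 was higher, with a median of -2.18 where the median of all genes was -0.06. Acta2, Cnn1, Tagln and Tpm2, 4 members, were at least 5-fold lower, where 3.94% of 23453 genes tested were called. No member was 5-fold higher, where 5.77% of genes were, and 0 were 2-fold higher, where 17.4% were. At 2-fold, 6 were lower, with Actg2 and Myl9 added to these 4, where 17.8% of genes were. At 4.10-fold and 4.53-fold, Actg2 and Myl9 lay just under the 5-fold line. The Des ratio (-0.04) was within its error.

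**Figure D2:**
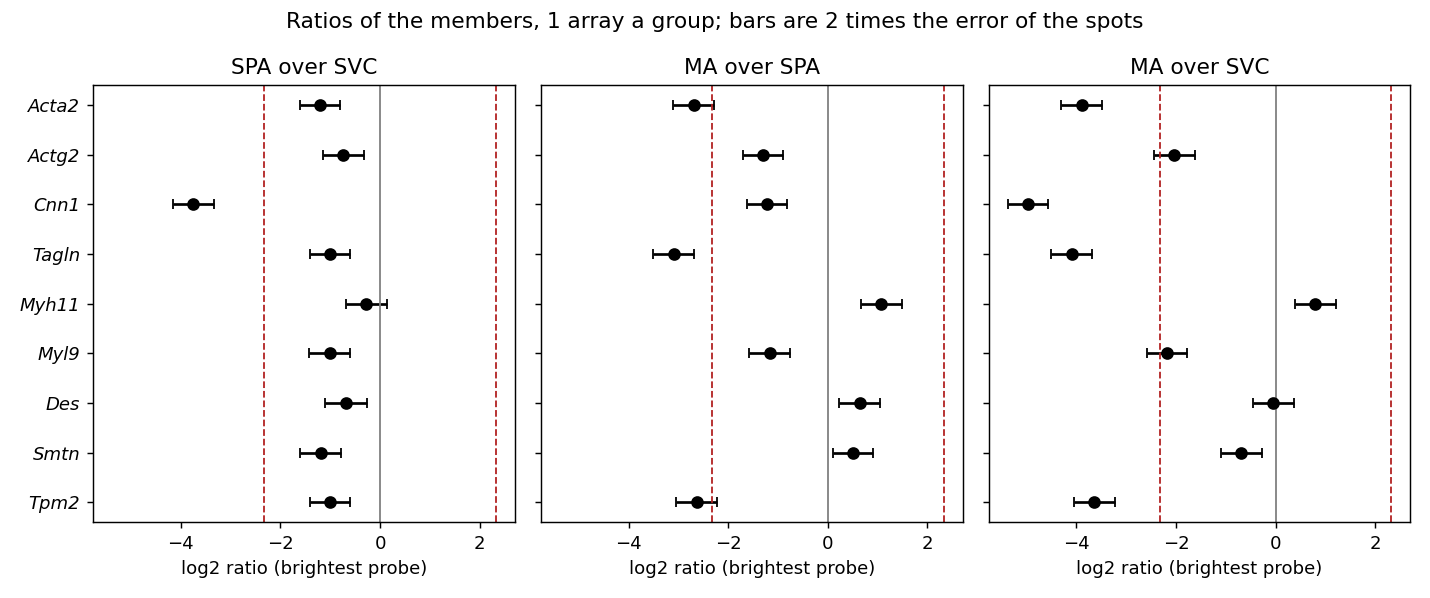
Log2 ratio (x axis) of the 9 contractile genes measured above background, at the brightest probe, for SPA over SVC, MA over SPA and MA over SVC; bars are 2 times the error-model error of the spots, which leaves out any difference between animals, and dashed lines mark 5-fold. Cnn1 alone passes the line for SPA over SVC, and Myh11 is the 1 gene above 0 for MA over SVC.

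Except for Smtn and Lmod1, the members are set beside 13 relatives from their own gene families, most of them known from non-muscle cells. Between SPA and SVC these relatives had a median log2 ratio of -0.33, and their range was -1.001 to 0.29. For MA over SVC their median was -1.03, with a range from -3.44 to 0.63.

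At their brightest probes, cytoplasmic actins were close to level or lower by less than the contractile actins. Actb had log2 ratios of -0.02 for SPA over SVC and -0.34 for MA over SVC, and Actg1 had -0.42 and -1.42. The 3 Actg1 probes ranged from -0.59 to 0.99 and from -1.42 to -0.94. Acta2 at its brightest probe had -1.21 and -3.90 in the same comparisons, and Actg2 had -0.74 and -2.04. The striated muscle actins Acta1 (-1.40 and -2.56) and Actc1 (-1.50 and -4.09) were lower as well, and whether their probes also read Acta2 was not tested.

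The non-muscle calponins differed from Cnn1 in the first step. Cnn2 and Cnn3 had log2 ratios of -0.79 and -0.70 for SPA over SVC, where Cnn1 had -3.75. From SPA to MA, Cnn2 (-2.66) was lower by more than Cnn1 (-1.22), and Cnn3 had -0.56. Tagln2, a transgelin of many cell types, had -0.37 from SVC to SPA and -0.61 from SPA to MA, while Tagln had -1.001 and -3.10.

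Among the myosin heavy chains, Myh11 was higher in MA than in SVC (0.79), and the non-muscle chains Myh9 (-1.21) and Myh10 (-0.75) were lower. Probes of Myh9 ranged from -1.56 to 0.25 in that comparison. The light chains turned the other way, since Myl9 was lower in MA (-2.18) and its non-muscle relatives Myl12a (-0.38) and Myl12b (0.63) were within 2-fold. Vim, the intermediate filament protein of mesenchymal cells, was within 2-fold of SVC in both SPA (0.12) and MA (-0.21).

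Tpm1, which smooth and striated muscle also use, had nearly the ratios of Tpm2: -1.001 from SVC to SPA and -3.38 from SVC to MA, where Tpm2 had -1.01 and -3.64. The 4 Tpm1 probes ranged from -3.47 to 0.47 in the second of these. Tpm3 and Tpm4, of non-muscle cells, had -1.03 and -1.47 for MA over SVC.

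**Figure D3:**
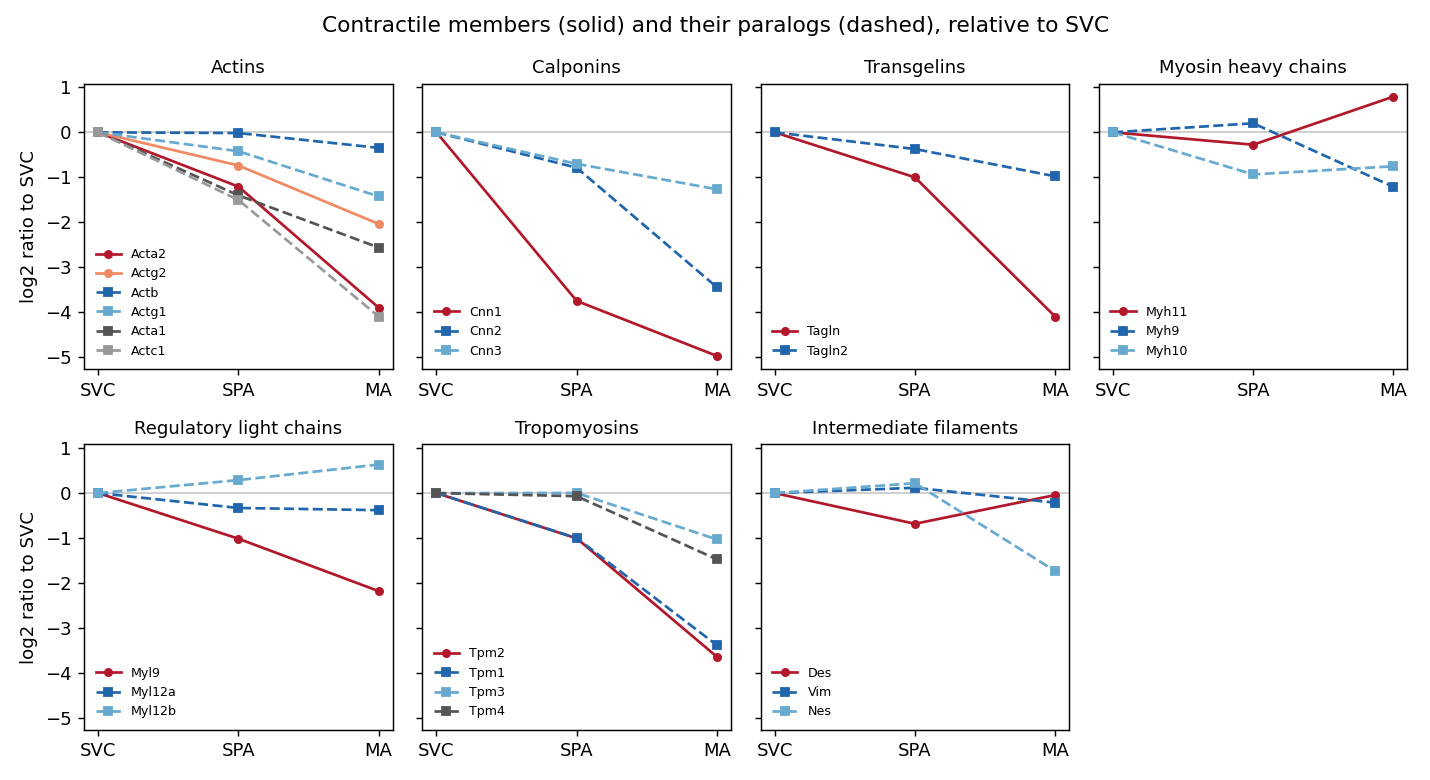
Log2 ratio to SVC (y axis) of contractile genes (solid lines) and of their paralogs (dashed lines) on the SVC, SPA and MA arrays, each at its brightest probe with 1 array a group. Cnn1 drops to -3.75 in SPA while Cnn2 and Cnn3 stay at -0.79 and -0.70, Tpm1 runs along Tpm2, and Myh11 ends above 0 where Myh9 and Myh10 end below it.

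Genes for other parts of the contractile apparatus were read as lists. Of 18 genes of the thin filament and the dense body, the anchor of thin filaments, 0 were past 5-fold between SPA and SVC. Of all genes tested, 0.322% were 5-fold higher there and 0.353% lower. The median log2 ratio of the 18 was -0.32. For MA over SVC, 3 were at least 5-fold higher and 2 at least 5-fold lower, where 5.77% and 3.94% of genes were. Those lower were Tpm1 and Actn1 (-3.87), an actin crosslinker, and those higher included Synpo2 (2.94) and Tns1 (2.40), adaptors of actin and adhesion sites. Tpm1, Actn1, Synpo2 and Tns1 were past 5-fold from SPA to MA as well at their brightest probes. Probes of Tns1 ranged from 0.45 to 2.40 for MA over SVC and from -1.08 to 2.43 for MA over SPA, and those of Tpm1 from -2.38 to 0.89 for MA over SPA, so their probes did not share a direction from SPA to MA.

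None of the 10 genes that switch the myosin light chain on and off was past 5-fold in any comparison. Of all genes tested, 0.322% were 5-fold higher and 0.353% lower in SPA than in SVC. In the comparisons with MA the share was 3.94% to 5.77% in each direction, so 0 of 10 lay near these shares. The medians of the 10 genes lay between -0.06 and 0.07. Mylk, the kinase that phosphorylates the light chain, had its lowest level in SPA at its brightest probe, with log2 ratios of -1.78 for SPA over SVC and 1.54 for MA over SPA. Its 5 probes ranged from -1.78 to -0.47 in the first and from -0.14 to 1.89 in the second. Ppp1r14a, an inhibitor of the opposing phosphatase, was also lowest in SPA, with -1.001 and 1.68.

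SRF with its coactivators, myocardin and the MRTFs, is the known switch of contractile genes, which it reads through the CArG box. Srf had log2 ratios of -0.55 for SPA over SVC and 1.49 for MA over SPA. Myocd was close to the background, with levels of -4.71 in SPA and -4.55 in MA, and in SVC its spot, at -5.03, did not pass it. Mkl1, the gene of MRTF-A, had levels of 3.27, 3.17 and 1.37, so that MA was 3.72-fold below SVC, and Mkl2 was within 2-fold in all comparisons at its brightest probe.

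Among the other genes of this axis, Klf4, a repressor of contractile genes, was the 1 gene past 5-fold, 5.54-fold higher in MA than in SPA and 5.87-fold higher than in SVC. Its 1 probe was marked for an outlying local background on all 3 arrays. Gata6 had -1.05 and Tead1 had -0.44 for SPA over SVC, and both were lower in MA than in SVC (-1.48 and -1.19). Elk1, a competitor of myocardin for SRF, was within 2-fold at its brightest probe, with signals of 219289 in SVC, 230006 in SPA and 242661 in MA. Another Elk1 probe read only 87.4, 76.5 and 52.6, and the last was not well above background on any array. Whether the brightest probe reads Elk1 alone was not tested. Foxo4 was well above background in MA only, with a bound of 1.17 against SVC. The median of the axis was -0.02 for SPA over SVC and 0.39 for MA over SVC.

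The CArG box, CC and GG around 6 bases of A or T, was looked for in the 250 bases before the start of each gene in the RefSeq promoter table (GRCm38.p6), which held 7 of the 10 members. A box read the same way on both strands, and 1 C or G within the 6 bases was counted apart. Of 32851 promoters, 1.47% held a strict box and 8.59% held one with at most 1 C or G. Actg2, Tagln and Myh11 had no promoter in that RefSeq table and were not searched. Among the 7 members searched, Myl9 held a strict box and Acta2 held boxes with 1 C or G. Their windows are printed because these are the members whose promoter held the letters; capitals mark the boxes and both run 5′ to 3′ toward the gene. The Acta2 window is chr19:34255378-34255477 on the minus strand, with boxes 84 to 75 and 34 to 25 bases before the start. The Myl9 window is chr2:156775283-156775394 on the plus strand, with the strict box 161 to 152 bases before the start and a box with 1 C or G at 99 to 90. A match is a description of letters, and binding was not measured.
Acta2: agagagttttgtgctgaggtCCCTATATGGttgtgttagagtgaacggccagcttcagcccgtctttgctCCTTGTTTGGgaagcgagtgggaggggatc
Myl9: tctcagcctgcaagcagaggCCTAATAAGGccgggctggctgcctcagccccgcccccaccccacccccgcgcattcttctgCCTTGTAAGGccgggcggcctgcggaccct

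Other genes and cell types moved beside the members. Mesothelial cells line the fat depot, and all 9 of their markers on the arrays were lower in SPA (median log2 ratio against SVC -2.55). Msln, Upk3b, Upk1b, Lrrn4, Krt19 and Cdh3 were past 5-fold lower, where 0.353% of genes tested were. All 9 markers were well above background on each array, with summed levels of 6.20 in SVC, 4.18 in SPA and 4.77 in MA. These sums weigh the brightest probes most, and for MA over SVC 3 markers were higher and 6 lower. The part of these cells in the lower contractile signals of SPA was not tested. From SPA to MA, 5 of the 9 markers were higher and 4 were lower, with a median log2 ratio of 0.37. Msln, Upk3b, Lrrn4 and Krt19 were at least 5-fold higher, where 5.5% of genes were. The contractile genes Acta2, Tagln and Tpm2 were at least 5-fold lower, where 3.94% of genes were.

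A list of Tgfb1 and genes that respond to TGF-beta, the main inducer of Acta2 in myofibroblasts, had a median of -0.58 for SPA over SVC. Of its 12 genes 11 were lower, where 43.4% of all measured genes were. Tgfb1, which codes for TGF-beta 1 itself, was the 1 gene higher (0.53). None was past 5-fold, where 0.353% of genes were lower and 0.322% higher. For MA over SVC the median was -1.16, and Ctgf (-3.75) and Lox (-4.48), a matrix growth factor and a collagen crosslinking enzyme, were past 5-fold lower. Lox was past 5-fold lower from SPA to MA too (-4.10).

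**Figure D4:**
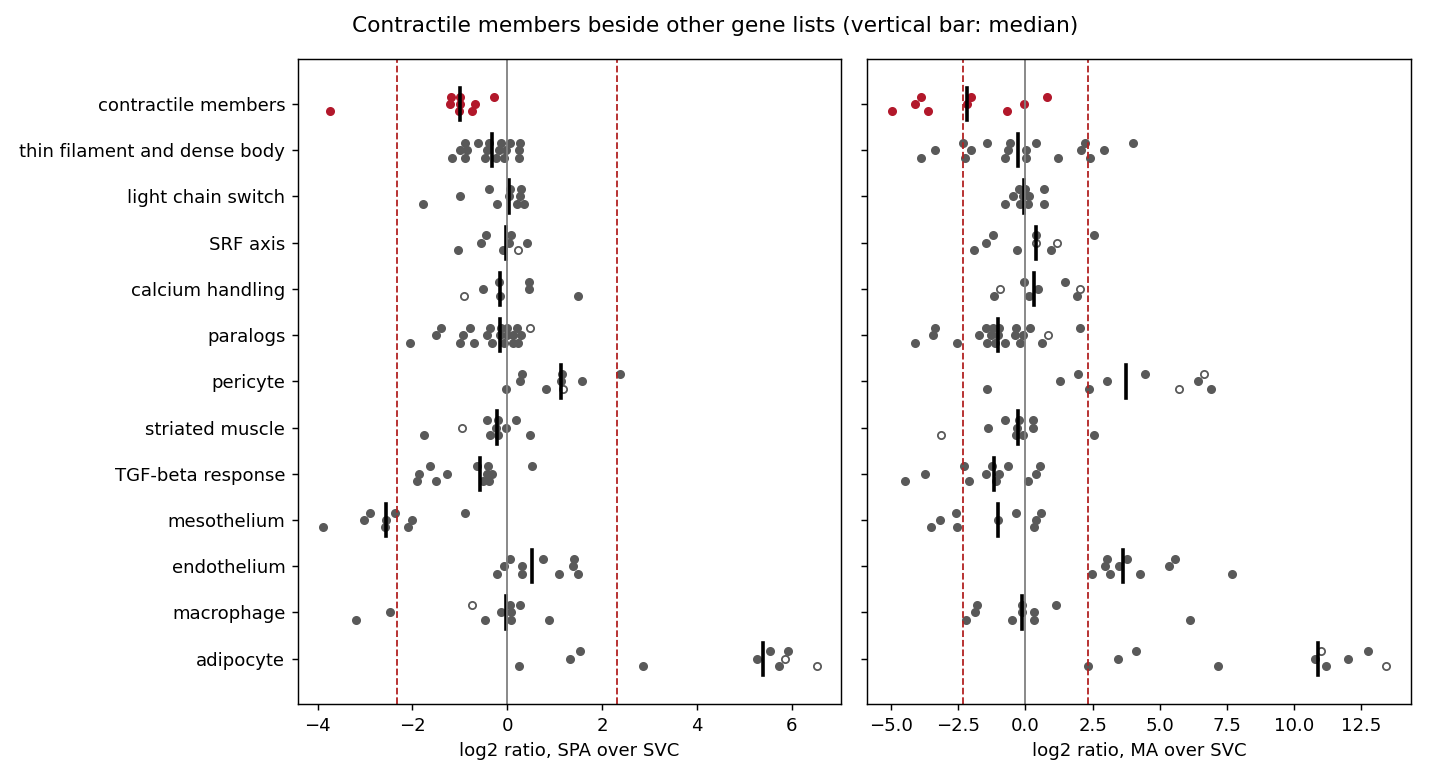
Log2 ratios (x axis) of the contractile genes (red) and of 12 other gene lists (grey) for SPA over SVC and MA over SVC, 1 point a gene; open circles are bounds, black bars list medians and dashed lines 5-fold. The contractile genes have medians of -1.01 and -2.18, the mesothelial markers -2.55 and -1.03, and the adipocyte markers 5.40 and 10.9.

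For each member measured on all 3 arrays, the genes of most similar course among 13492 others, up to 3 a member, were named by the root mean square distance between levels centred on their mean over the 3 arrays. With 3 arrays many genes lie close, and the order below is a description. Tagln lay closest to Kif4, Bub1b and Ect2 (distances 0.02 to 0.07 on the log2 scale), Acta2 to Wnt4, Cenpe and Wfdc2 (0.03 to 0.12), and Tpm2 to Ckap4, Ckap2l and Hist1h3g. Actg2 lay closest to Thbs2, Dact3 and Pi15, Myl9 to Adgra3, Tead3 and Ccl6, and Smtn to Dusp14, Ccl2 and Col1a2. Myh11 had Bahcc1, Kctd12 and Dusp16, and Des had Hmgn2, Ccdc141 and Plxnb1. Cnn1 had no gene nearer than Tmem108 at 0.35, and Vat1l lay at 0.41.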

How the data were processed

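Per the labels, RNA from 1 SVC, 1 SPA and 1 MA sample was labelled with Cy3 and hybridised to an Agilent array each. The authors scanned the arrays and deposited the processed signal intensity of every spot from Agilent Feature Extraction 10.7.3.1 (named in the submitters' processing notes), already background-subtracted and not scaled between arrays. They also deposited a value table, a ratio of that intensity to 1 constant per array. Here, control spots and spots flagged as outliers were left out, spots of a probe were averaged, and each array was scaled to its own 75th percentile on the log2 scale. Scaling to a percentile assumes that it is alike in all fractions.

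A call needed 5-fold, the study's own rule, with the brighter spot well above background; a dim spot took its own signal or, where larger, the array's floor (the dimmest signal still well above background), and its ratio is a bound. Where a gene had several probes, the one with the largest level averaged over the 3 arrays was used. With 1 array a group no test was run. The members and the 12 other lists were chosen with earlier results of these data known. Named were all members, genes of the pathway lists past 5-fold, the non-muscle counterparts, the SRF axis and the 3 most similar genes; of the cell type lists the genes past 5-fold are named where their list stands beside a member, and otherwise counted. A few items that these rules select are not reported here. Probe positions are those of the files (mm9), and exon or UTR annotation of that build was not used here. Alternatives were normexp background correction (limma 3.58.1, offset 50), quantile scaling, another percentile, the value table, other filters, other probe rules and a 2-fold call. The ratio and call code was tested on simulated data. Python 3.11.15, pandas 2.3.3 and R 4.3.3 were used.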

Additional observations from a re-analysis of the deposited data

How the results depend on the processing

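No paired analysis was possible because each group holds 1 array, and no array could be left out. At 2-fold in place of 5-fold, 6 members were lower in SPA than in SVC (1 at 5-fold), 6 were lower in MA than in SPA (3 at 5-fold) and 1 was higher there (0 at 5-fold). Quantile scaling moved the median of the members for MA over SVC from -2.18 to -1.96. Myl9, the middle member, went from -2.18 to -1.56, and Actg2, at -1.96, became the middle member. Why quantile scaling moved Myl9 was not tested. Of the members' single ratios, 222 of the values under the alternatives stayed within 1 spot error of the reported one and 21 moved by more. Many of the 222 could not move, so they are not separate checks. The value table holds the same signals over a constant, and the filters on dim probes leave ratios measured on both arrays unchanged. Genes with 1 measured probe, such as Tagln, keep their ratio under any probe rule. Another percentile, or leaving out spots of outlying background, shifted the members of a comparison alike. With the median of its probes, Acta2 had a log2 ratio of -1.79 for MA over SPA in place of -2.69 and was no longer past 5-fold, so 2 members were called lower there in place of 3. The other 5-fold calls of members held under each alternative run, and no called ratio changed sign. Des alone changed sign, for MA over SVC with the median of its probes or its probe of largest ratio. Calls over all genes moved more, also with the cause not tested. Normexp gave 30 higher and 15 lower for SPA over SVC in place of 73 and 80 (66.7% higher in place of 47.7%), 762 and 456 in place of 1317 and 944 for MA over SPA, and 782 and 439 in place of 1354 and 924 for MA over SVC. With no filter on dim probes the first became 286 and 157 (64.6% higher), and the median of all genes for MA over SVC became -0.18. The 2-fold calls over all genes were 892 and 726, 3799 and 4255, and 4092 and 4177. Signal over background limits Lmod1, 1 Myl9 probe and, in MA, 1 probe each of Acta2, Cnn1 and Tpm2 to a bound or to no ratio.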

Other observations

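Of 10 genes of calcium handling, which sets the trigger of smooth muscle contraction, 7 had a ratio for SPA over SVC. For MA over SPA 7 had one, and for MA over SVC 8. No ratio or bound reached 5-fold, where 0.322% to 5.77% of all genes did in each direction, by comparison. Cacna1c, the pore of the L-type calcium channel, had levels of -3.93 in SVC, -2.45 in SPA and -2.02 in MA, a log2 ratio of 1.91 for MA over SVC, with probes from 0.49 to 1.91. Kcnmb1, the smooth muscle subunit of a calcium-activated potassium channel, was well above background in SVC only at its brightest probe, and its other probe passed the background in SPA only (bound -0.14 for MA over SPA). Ryr2, a calcium release channel, was well above background in MA only, with a bound of 2.03 against SVC. Pln and Ryr3 were not well above background on any array.

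Of 15 striated muscle markers, 10 passed the background on the SVC array, and 9 did so on each of the SPA and MA arrays. Myod1, Myog, Ckm, Mb and Myh1 passed it on no array. Tnnc2, a troponin of fast skeletal muscle, was higher in MA than in SVC (log2 ratio 2.55), and Tnnt2, a cardiac troponin, was lower at its brightest probe (bound -3.15), with probes from -3.15 to 1.08. Of 10 macrophage markers, 5 were higher and 5 lower in SPA than in SVC (median -0.03), with C1qa (-3.18) and C1qb (-2.48) past 5-fold lower and Cd68 at 0.88. For MA over SVC 4 were higher and 6 lower (median -0.13), with Cd163 (6.10) past 5-fold higher and Cd68 at -2.21.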
